A study of Mus musculus with 6 samples.

Results

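The genes described here encode the core of the basement membrane and its closest partners: the collagen IV chains Col4a1 and Col4a2, the laminin chains Lama1, Lama5, Lamb1 and Lamc1, the linkers nidogen 1 (Nid1) and perlecan (Hspg2), the collagen-binding glycoprotein Sparc, and P4ha2, a subunit of collagen prolyl 4-hydroxylase. These 10 genes were taken by name (on the array COL4A1, COL4A2, LAMA1, LAMA5, LAMB1-1, LAMC1, SPARC, NID1, HSPG2 and P4HA2), and every probe whose symbol or synonym pointed to them was used. That gave 16 of the 46643 probes on the array, and 7 of the 10 genes were among the 6539 genes tested. The genes were chosen with earlier results of these data known.

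A basement membrane is a thin sheet of extracellular matrix on which epithelia rest. Laminin trimers of an alpha, a beta and a gamma chain polymerize at the cell surface, collagen IV trimers form a covalent network beside them, and nidogen and perlecan join both networks. In the early mouse embryo the primitive endoderm and its derivatives secrete large amounts of collagen IV, laminin and Sparc, and embryonic stem cells also make laminin.

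The cells were CCE mouse embryonic stem cells, a feeder-free line kept in serum with leukemia inhibitory factor (LIF). They were transfected with pSuper.puro plasmids that expressed a short hairpin RNA (shRNA), and from 18 h later were selected for 4 days in puromycin at 1.5 µg/ml, so that all 3 groups shared the plasmid backbone, the transfection reagent and the drug. The groups were Prmt6 shRNA1 and Prmt6 shRNA2, which target the arginine methyltransferase Prmt6, and a hairpin against GFP as the control. Each had 2 Illumina bead arrays of total RNA, replicates that the labels do not tie to separate cultures, so each p-value measures a spread that may be technical. A probe was detected on an array at a detection p under 0.01, and was kept for testing when detected on at least 2 of the 6 arrays. Levels are normalized log2 intensities, differences were tested with limma over all 6539 genes, and a gene was called at a Benjamini-Hochberg adjusted p under 0.05. Detected probes made up 12.4% to 23.4% of each array, and 2 arrays per group set the limit on precision. Prmt6 shRNA2 replicate 2 was the array least like the others. Over the kept probes it correlated with them at 0.824 to 0.890, and all other pairs at 0.939 to 0.973. The array's probe IDs fall into 2 numeric ranges, called here the first and the second series. The Prmt6 shRNA2 replicates correlated at 0.971 over the kept first-series probes, which read all 7 tested genes, and at 0.714 over the second-series ones. Replicates of the other groups correlated at 0.964 to 0.980 and at 0.943 to 0.964. A fit without Prmt6 shRNA2 replicate 1 rests on replicate 2 alone for its group, so a call that holds there is no sign of robustness.

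The targeted gene was read by a single kept probe, of the second series, in which the Prmt6 shRNA2 replicates correlated at only 0.714. Of that series 935 probes were detected on Prmt6 shRNA2 replicate 2, against 1302 to 2836 on the other arrays. The background-subtracted intensity of the Prmt6 probe was 389.8 and 266.1 under GFP shRNA, 48.3 and 147.6 under Prmt6 shRNA1, and 97.8 and -21.6 under Prmt6 shRNA2. All 4 arrays of the Prmt6 hairpins lay below both GFP shRNA arrays, also after normalization, where this held for 8.79% of all genes. The probe was detected on both GFP shRNA arrays but on only 1 of the 4 others, so no exact fold is given. It was at least 1.40-fold lower with Prmt6 shRNA2, and the limma adjusted p of 0.082 for both hairpins missed the threshold of 0.05. Of 15 embryonic stem cell markers on the array, 12 or 13 were detected on each array, among them Pou5f1, Sox2 and Nanog. Of 14 fibroblast markers, 3 were detected on at least 1 array and 11 on none, among the latter Col1a1, Col1a2, Col3a1 and Thy1.

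Promoter windows from RefSeq (assembly GRCm38.p6), from 250 bases before to 50 after the start site that the table of windows uses, were at hand for 8 of the 10 genes, without Lama1 and Lamc1. For Col4a1, Lama5, Lamb1 and Hspg2 that site is not the outer end of the gene record. Col4a1 and Col4a2 lie head to head on chromosome 8, where the gene record of Col4a1 ends at 11312889 and that of Col4a2 begins at 11312805. The start sites of their windows, 11312826 and 11312805, are 21 bases apart, and the windows share 78 bases read on opposite strands. These windows are shown because the levels of both collagen IV genes had the same order over the groups. Nid1 and P4ha2 are shown beside them as the genes that passed the test with 1 hairpin each. The Col4a1 window is chr8:11312777-11313076 (minus strand), the Col4a2 window chr8:11312555-11312854 (plus strand), the Nid1 window chr13:13437352-13437651 (plus strand) and the P4ha2 window chr11:54100674-54100973 (plus strand). Capitals mark the GC box (GGGCGG) and the CCAAT box (CCAAT) on either strand.
Col4a1: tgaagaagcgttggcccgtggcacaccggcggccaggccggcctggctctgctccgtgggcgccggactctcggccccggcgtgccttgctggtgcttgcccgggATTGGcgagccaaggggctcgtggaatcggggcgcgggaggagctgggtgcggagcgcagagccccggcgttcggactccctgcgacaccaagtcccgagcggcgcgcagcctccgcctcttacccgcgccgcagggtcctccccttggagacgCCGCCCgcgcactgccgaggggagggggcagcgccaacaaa
Col4a2: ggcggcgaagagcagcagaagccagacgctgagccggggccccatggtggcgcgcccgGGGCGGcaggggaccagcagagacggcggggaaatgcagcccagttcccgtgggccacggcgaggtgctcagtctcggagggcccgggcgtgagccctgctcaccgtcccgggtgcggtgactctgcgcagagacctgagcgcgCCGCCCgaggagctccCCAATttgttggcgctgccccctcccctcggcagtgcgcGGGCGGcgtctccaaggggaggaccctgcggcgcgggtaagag
Nid1: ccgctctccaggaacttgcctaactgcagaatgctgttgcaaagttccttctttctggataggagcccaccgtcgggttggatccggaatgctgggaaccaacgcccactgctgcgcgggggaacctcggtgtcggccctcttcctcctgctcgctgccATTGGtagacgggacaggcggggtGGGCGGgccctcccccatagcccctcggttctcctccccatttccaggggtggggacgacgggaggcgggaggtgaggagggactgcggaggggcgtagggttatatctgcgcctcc
P4ha2: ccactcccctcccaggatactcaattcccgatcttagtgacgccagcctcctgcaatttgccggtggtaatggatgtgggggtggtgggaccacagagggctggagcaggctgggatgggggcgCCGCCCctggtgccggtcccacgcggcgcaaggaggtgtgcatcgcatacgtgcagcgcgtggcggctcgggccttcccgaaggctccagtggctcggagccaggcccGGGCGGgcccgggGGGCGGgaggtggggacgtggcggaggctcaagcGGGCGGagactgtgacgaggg
The Col4a1 window held 1 GC box and 1 CCAAT box, the Col4a2 window 3 and 1, and the Nid1 window 1 and 1. The GC box of Col4a1 lies in the 78 shared bases and is the same site as 1 of the Col4a2 GC boxes, read on the other strand. The P4ha2 window held 4 GC boxes and no CCAAT box. Over 32851 windows of the same length, 35.7% held a GC box and 37.4% a CCAAT box. The GATA letters AGATAA, found in 11.2% of all windows, and the TATA letters TATAAA, found in 13.6%, were in none of the 8 windows, which says only that these letters are absent there.

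The main comparison set the mean of both Prmt6 hairpins against GFP shRNA. Col4a1 and P4ha2 were higher by about 2-fold and passed the test, the only 2 of the 7 tested genes to do so, against a background of 1.50% of all genes called higher. None was called lower, against a background of 0.168%. All 7 had a difference above 0, as did 53.3% of all genes. The fitted log2 differences of the 7 genes ran from 0.48 for Hspg2 to 1.10 for P4ha2, with a median of 0.90, where the median over all 6539 genes was 0.02. On 6 of the 7, all but Lama5, the 4 Prmt6 hairpin arrays lay above both GFP shRNA arrays, which held for 15.8% of all genes. All 7 had an unadjusted limma p under 0.05 in the higher direction, as did 10.7% of all genes. Because the genes were chosen with earlier results of these data known, their counts and median beside those of all genes are a description only. The arrays were of total RNA from whole cultures, in which more cells of a type and more RNA per cell cannot be told apart.

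**Figure D1:**
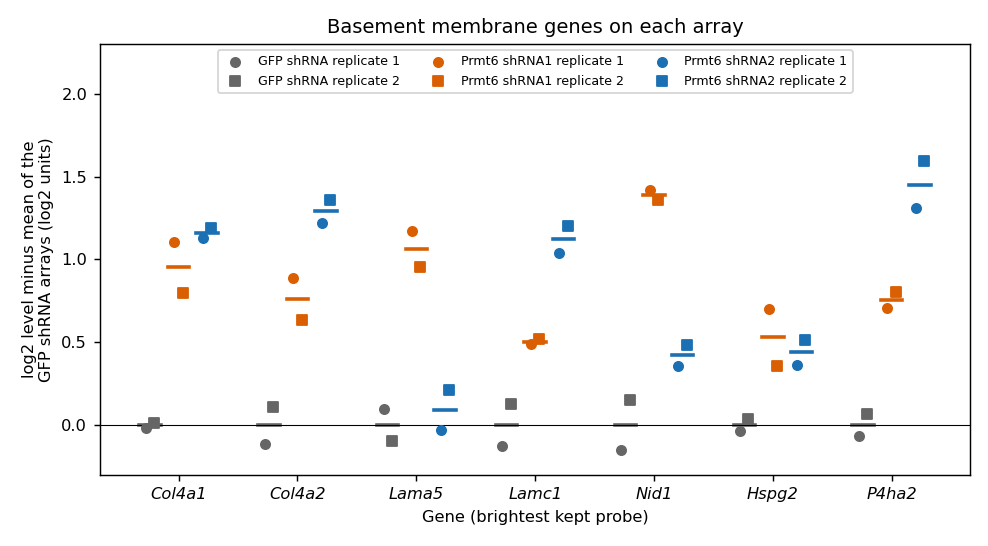
Normalized log2 level of each of the 7 tested genes on each of the 6 arrays, as the difference in log2 units from the mean of the GFP shRNA arrays; circles and squares are replicates 1 and 2, and short lines are group means. Col4a1, Col4a2, Lamc1 and P4ha2 were highest with Prmt6 shRNA2, whereas Nid1 and Lama5 were highest with Prmt6 shRNA1.

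Col4a1 and Col4a2 supply the chains of the most widespread collagen IV trimer. For Col4a1 the normalized log2 level was 11.20 and 11.23 under GFP shRNA, 12.32 and 12.01 under Prmt6 shRNA1, and 12.34 and 12.40 under Prmt6 shRNA2. Every array of a Prmt6 hairpin lay above the GFP shRNA arrays, and both Prmt6 shRNA2 arrays lay just above both Prmt6 shRNA1 arrays. Across both hairpins Col4a1 rose 2.08-fold (log2 1.06 ± 0.16, 95% interval 0.66 to 1.45, limma adjusted p = 0.0457). With each array left out in turn the log2 difference stayed between 0.97 and 1.14, but the adjusted p ran from 0.0339 without Prmt6 shRNA2 replicate 1 to 0.42 without GFP shRNA replicate 2, and missed the threshold without any array but Prmt6 shRNA2 replicate 1.

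For Col4a2 the normalized log2 level was 12.56 and 12.79 under GFP shRNA, 13.56 and 13.31 under Prmt6 shRNA1, and 13.90 and 14.03 under Prmt6 shRNA2. The order of the groups was that of Col4a1, with no overlap between any of them. The difference across both hairpins was 2.04-fold (log2 1.03 ± 0.17, 95% interval 0.62 to 1.44), and its limma adjusted p of 0.0509 missed the threshold. These 2 genes were also the only ones of the 7 whose intensities before normalization put all 4 Prmt6 hairpin arrays above both GFP shRNA arrays, which held for 3.20% of all genes. The mean intensity over all probes ran from 202 to 345 between arrays. Col4a1 intensity was 2769.7 and 2204 under GFP shRNA, 3427.9 and 5205.6 under Prmt6 shRNA1, and 5968.6 and 4355.4 under Prmt6 shRNA2. Col4a2 intensity was 7123.5 and 6809.5 under GFP shRNA, 8572.2 and 12110.6 under Prmt6 shRNA1, and 17408.3 and 13388 under Prmt6 shRNA2.

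Laminins were uneven. Lamc1, the gamma chain of most laminins, had a normalized log2 level of 11.41 and 11.67 under GFP shRNA, 12.03 and 12.06 under Prmt6 shRNA1, and 12.58 and 12.74 under Prmt6 shRNA2. The 3 groups did not overlap, in the same order as for collagen IV. The difference across both hairpins was 1.75-fold (log2 0.81 ± 0.16, limma adjusted p = 0.0761) and did not pass the test.

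Lama5, the alpha chain of the laminin that supports pluripotent cells in culture, had another pattern. Its normalized log2 level was 8.30 and 8.11 under GFP shRNA, 9.37 and 9.16 under Prmt6 shRNA1, and 8.17 and 8.42 under Prmt6 shRNA2. The Prmt6 shRNA1 arrays stood about a log2 unit above the others, and the Prmt6 shRNA2 arrays overlapped the GFP shRNA arrays. The difference across both hairpins was log2 0.58 ± 0.17 (limma adjusted p = 0.194). With Prmt6 shRNA2 alone it was 0.09 ± 0.19, with a 95% interval from -0.39 to 0.57, and its sign turned under several alternatives, to as low as -0.087 with 75th percentile scaling.

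Lama1 and Lamb1, the other chains of the laminin typical of primitive endoderm, could not be tested. The Lama1 probe was detected on no array, with intensities from -34 to -4.6. No second-series probe of the 10 genes was detected anywhere. The first-series Lamb1 probe, listed under the older symbol Lamb1-1, gave -3.8 and -28.3 under GFP shRNA, 5.5 and 90.9 under Prmt6 shRNA1, and 5.4 and -16.3 under Prmt6 shRNA2. Its detection score passed only on Prmt6 shRNA1 replicate 2, the array with the most detected probes, 10928 against 5782 to 9034 on the others. Without the detection filter the fitted log2 difference of Lamb1 across both hairpins was 0.44 ± 0.33 (limma adjusted p = 0.988), and that of Lama1 was 0.05.

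Sparc, a secreted glycoprotein that binds collagen IV and is abundant in parietal endoderm, was likewise near background. Its first-series probe gave intensities of 19.8 and -18.5 under GFP shRNA, 7.6 and 91.1 under Prmt6 shRNA1, and 28 and -16.5 under Prmt6 shRNA2. As for Lamb1, the single detected value was on Prmt6 shRNA1 replicate 2. The fitted log2 difference without the detection filter was 0.34 ± 0.34 (limma adjusted p = 1). For these 3 genes a change was not detectable at this signal.

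**Figure D2:**
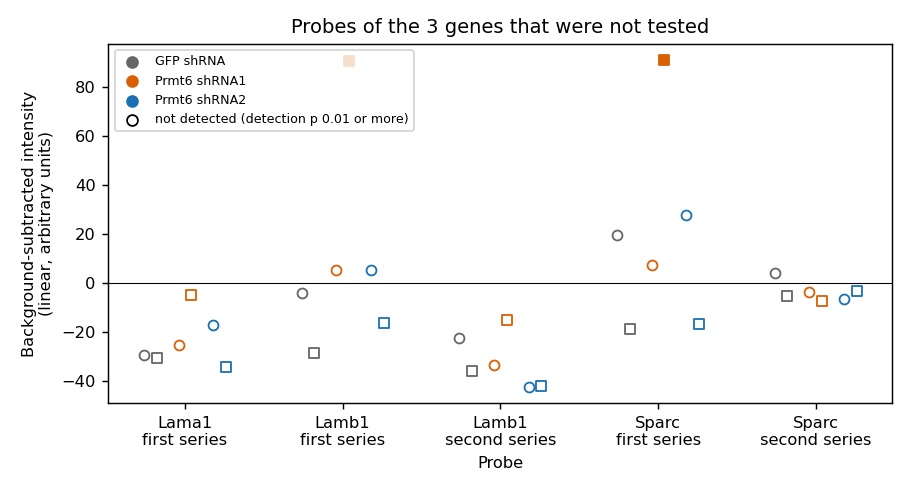
Background-subtracted intensity (linear, arbitrary units) of the probes of Lama1, Lamb1 and Sparc on each array, with filled symbols where the probe was detected; circles and squares are replicates 1 and 2. Only the values of 90.9 for Lamb1 and 91.1 for Sparc, both on Prmt6 shRNA1 replicate 2, were detected.

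Nid1, a linker that bridges laminin and collagen IV, had a normalized log2 level of 7.74 and 8.05 under GFP shRNA, 9.31 and 9.25 under Prmt6 shRNA1, and 8.25 and 8.38 under Prmt6 shRNA2. The groups did not overlap, and Prmt6 shRNA1 was the highest. The difference across both hairpins was 1.87-fold (log2 0.90 ± 0.16, limma adjusted p = 0.0632) and missed the threshold.

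Hspg2, the heparan sulfate proteoglycan perlecan, had a normalized log2 level of 10.54 and 10.61 under GFP shRNA, 11.28 and 10.93 under Prmt6 shRNA1, and 10.94 and 11.09 under Prmt6 shRNA2. Both Prmt6 hairpins lay above GFP shRNA and overlapped each other. Its difference across both hairpins was the smallest of the 7, at 1.40-fold (log2 0.48 ± 0.17, limma adjusted p = 0.273). Hspg2 was the only member with more than 1 kept probe, and the dimmer of the 2 gave a log2 difference of 0.37.

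P4ha2 hydroxylates prolines in collagen chains in the endoplasmic reticulum, a step that stabilizes the triple helix. Its normalized log2 level was 8.81 and 8.95 under GFP shRNA, 9.59 and 9.68 under Prmt6 shRNA1, and 10.19 and 10.47 under Prmt6 shRNA2. The groups did not overlap, and the order was that of collagen IV and Lamc1. Across both hairpins P4ha2 rose 2.15-fold (log2 1.10 ± 0.16, 95% interval 0.70 to 1.50, limma adjusted p = 0.0435). With each array left out in turn the log2 difference ran from 1.02 to 1.17 and the adjusted p from 0.0217 without Prmt6 shRNA2 replicate 1 to 0.362 without GFP shRNA replicate 2, above the threshold without any array but Prmt6 shRNA2 replicate 1.

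Each hairpin had a different leading gene, and both comparisons share the GFP shRNA arrays. With Prmt6 shRNA1, Nid1 rose 2.61-fold (log2 1.39 ± 0.19, limma adjusted p = 0.0361), the only 1 of the 7 genes called, where 1.27% of all genes were called higher and 0.0459% lower. With each of the 6 arrays left out in turn the log2 difference of Nid1 ran from 1.23 to 1.56. Each such fit leaves 1 array in a group and ended this call, and fewer of all genes were called in each as well. All 7 genes lay above both GFP shRNA arrays on both Prmt6 shRNA1 arrays, as did 23.0% of all genes. The other log2 differences were 1.06 ± 0.19 for Lama5, 0.95 ± 0.18 for Col4a1, 0.76 ± 0.19 for Col4a2, 0.75 ± 0.19 for P4ha2, 0.53 ± 0.19 for Hspg2 and 0.50 ± 0.18 for Lamc1, none of which passed.

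With Prmt6 shRNA2, P4ha2 rose 2.73-fold (log2 1.45 ± 0.19, limma adjusted p = 0.0438), again the only 1 of the 7 called, where 0.933% of all genes were called higher and 0.107% lower. With each array left out in turn the log2 difference ran from 1.30 to 1.59. Each such fit leaves 1 array in a group, and the call was lost without any array but Prmt6 shRNA2 replicate 1. Without that array more of all genes were called, and Prmt6 shRNA2 rested on replicate 2, the array least like the others. Col4a2 at log2 1.29 ± 0.19, Col4a1 at 1.16 ± 0.18 and Lamc1 at 1.12 ± 0.18 had limma adjusted p-values of 0.0526, 0.0596 and 0.0628. Hspg2 was at 0.44 ± 0.19 and Nid1 at 0.42 ± 0.19. On 6 of the 7, all but Lama5, both Prmt6 shRNA2 arrays lay above both GFP shRNA arrays, as on 32.2% of all genes.

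**Figure D3:**
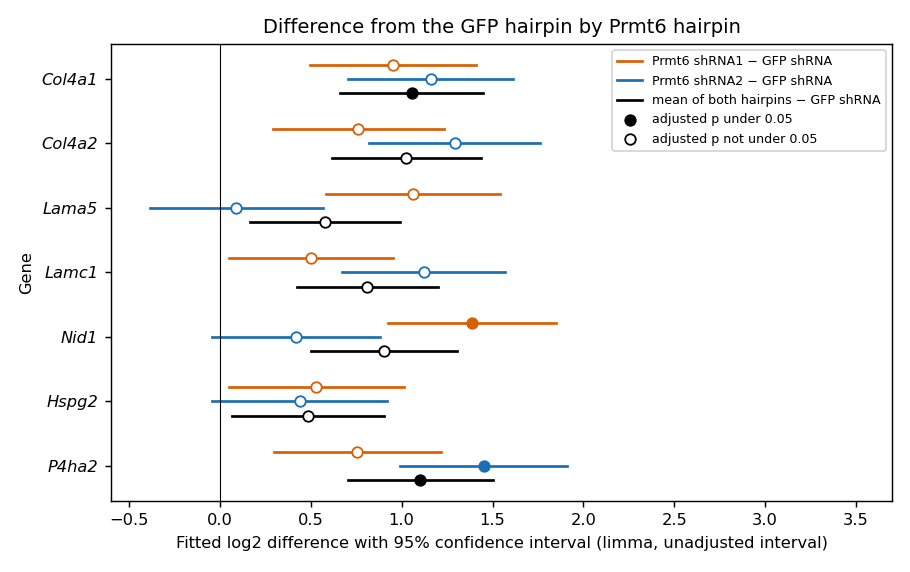
Fitted log2 difference from GFP shRNA (points) with its unadjusted 95% confidence interval (lines) for each hairpin and for the mean of both; filled points had a limma adjusted p under 0.05. The filled points are Col4a1 and P4ha2 for both hairpins, Nid1 for Prmt6 shRNA1 and P4ha2 for Prmt6 shRNA2, and the Lama5 interval for Prmt6 shRNA2 spans 0.

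The direct test between the hairpins called none of the 7 genes higher (background 0.0918%) or lower (background 0.306%) with Prmt6 shRNA2 than with Prmt6 shRNA1. At an unadjusted limma p under 0.05, Col4a2, Lamc1 and P4ha2 were higher with Prmt6 shRNA2 (6.47% of all genes) and Lama5 and Nid1 lower (5.44%). The log2 differences were -0.97 ± 0.19 for both Nid1 (95% interval -1.43 to -0.50, limma adjusted p = 0.159) and Lama5 (-1.45 to -0.49, adjusted p = 0.171). P4ha2 was higher by 0.70 ± 0.19 (limma adjusted p = 0.283), Lamc1 by 0.62 and Col4a2 by 0.53. The Col4a1 difference was 0.21, with a 95% interval from -0.25 to 0.66. The arrays of the hairpins did not overlap on 4 genes that were higher with Prmt6 shRNA2 (26.2% of all genes) and on 2 that were lower (17.9%).

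The likeness of the genes' patterns was measured as the root-mean-square difference between their log2 levels over the 6 arrays, each gene centred on its own mean, and is a description only. Col4a2 and Lamc1 were the closest pair at 0.135, with Col4a2 and P4ha2 at 0.136. Lama5 and Nid1 stood 0.218 apart, and Lama5 and P4ha2 were farthest from each other at 0.737. Among the 6538 other genes tested, the 5 nearest to Col4a1 were Kctd10 at 0.0839, Blcap at 0.0919, Lrpap1 at 0.0936, 1700007K13Rik at 0.11 and Fam122b at 0.112. Col4a2, at 0.146, ranked 22 in that order, Lamc1 131, P4ha2 142, Hspg2 284, Nid1 2337 and Lama5 3082.

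Genes around the basement membrane were read from lists chosen for this account with earlier results known. Of 30 other basement membrane genes listed, 29 were on the array and 6 were tested. None of the 6 passed by limma in either direction, where 1.50% of all genes were called higher and 0.168% lower. An unadjusted limma p under 0.05 was reached by 2, as by 10.7% of all genes upward and 3.87% downward. The median log2 difference across both hairpins was 0.29. Col18a1, whose product releases endostatin, was at 0.66 ± 0.17 (limma adjusted p = 0.158). Agrn, Lamb2, Lama4 and Fbln1 lay between -0.06 and 0.33, and the remaining tested gene is not reported here. With Prmt6 shRNA1 alone the list's median was 0.71, and 4 had an unadjusted limma p under 0.05. Over all genes 8.18% did so upward and 3.50% downward. With Prmt6 shRNA2 alone the median was 0.25 and 0 did, where 11.9% of all genes did so upward and 5.29% downward.

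Enzymes and chaperones of collagen maturation gave 2 of 15 tested genes higher and none lower, where 1.50% of all genes were called higher and 0.168% lower. Their median log2 difference was 0.27 (0.26 with undetected genes at their limit). Plod2, a lysyl hydroxylase that sets the type of collagen cross-link, rose 2.06-fold (log2 1.05 ± 0.16, limma adjusted p = 0.049). Bmp1, a procollagen C-proteinase, was detected on both Prmt6 shRNA1 arrays and on no other. It entered the test only through the arrays where it was high, so its call is a description, and only 1 of the 2 calls was of a gene detected under GFP shRNA. It was at least 1.15-fold higher across both hairpins (limma adjusted p = 0.0186), taken against the lowest detected signal on the GFP shRNA arrays, and at least 2.22-fold higher with Prmt6 shRNA1 alone (adjusted p = 0.00683). Serpinh1, the collagen chaperone HSP47, was at 1.02 ± 0.19 (limma adjusted p = 0.0634), while P4ha1 and P4hb, further prolyl hydroxylase subunits, were at 0.32 and 0.26. Leaving out any array but Prmt6 shRNA2 replicate 1 left 0 of these genes called.

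Matrix receptors gave 2 of 10 tested genes higher and none lower (1.50% and 0.168% of all genes), with a median of 0.63 (0.33 with undetected genes at their limit). Itga3, a laminin-binding integrin chain, rose 2.88-fold (log2 1.53 ± 0.18, limma adjusted p = 0.0274). The syndecan Sdc4, a heparan sulfate co-receptor, rose 2.84-fold (log2 1.51 ± 0.20, limma adjusted p = 0.0342). Itgb1, the beta chain shared by most laminin and collagen receptors, was at 0.93 ± 0.15 with a limma adjusted p of 0.0506. Dag1, the laminin receptor dystroglycan, was at -0.11. Without any array but Prmt6 shRNA2 replicate 1, 0 receptors were called.

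Of 10 tested matrix proteases and inhibitors 2 were called higher and none lower (1.50% and 0.168% of all genes), with a median of 0.72 (0.61 with undetected genes at their limit). They were Plaur, the urokinase receptor, at 5.85-fold (limma adjusted p = 0.0102), and the metalloproteinase inhibitor Timp3, at least 1.52-fold (adjusted p = 0.0435). Of the interstitial matrix list 24 genes were on the array and only 4 tested. The matricellular gene Ccn1 was the 1 called higher (1.50% of all genes), at least 2.03-fold (limma adjusted p = 0.0376). Timp3 and Ccn1 were detected on no GFP shRNA array and, like Bmp1, entered the test only through the arrays where they were high.

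**Figure D4:**
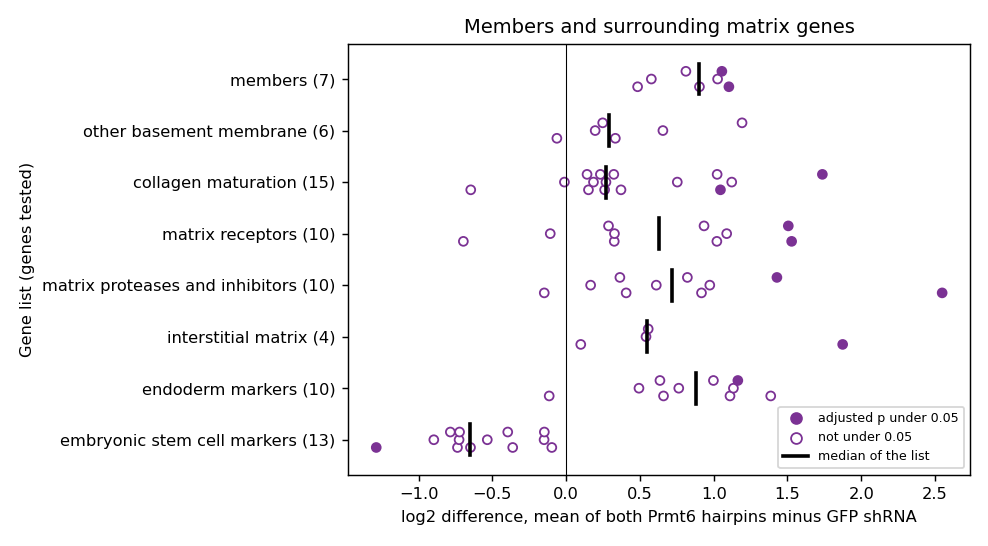
Log2 difference of both Prmt6 hairpins from GFP shRNA for every tested gene of the named lists; filled points had a limma adjusted p under 0.05 and the black line is the list's median. The 7 basement membrane genes had a median of 0.90, the endoderm markers 0.88 (0.71 with undetected genes at their limit) and the embryonic stem cell markers -0.65.

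Markers of other cell types moved with the same contrast, and their part in the results above was not tested. Of 23 endoderm markers, 10 were tested, 9 of them above 0, and 1 passed: Gata4, an endoderm transcription factor. Over all genes 53.3% lay above 0 and 1.50% were called higher. Gata6 was at 0.76 and Sox17 at 1.39, and neither passed (limma adjusted p = 0.117 and 0.0509). The summed normalized linear level of the 23 was 3769 to 4127 with GFP shRNA, 5090.4 to 5950.2 with Prmt6 shRNA1 and 7228 to 7852 with Prmt6 shRNA2. The order of the groups was that seen for collagen IV, Lamc1 and P4ha2, and it was not particular to endoderm markers. The endothelial sum given below had the same order, though only 0 to 3 of its 10 markers were detected on each array. The embryonic stem cell sum had the reverse order. Before normalization the groups overlapped in each of these sums. The summed intensity of the endoderm markers was then 3726.7 and 3462.7 under GFP shRNA, 3136.2 and 6573.2 under Prmt6 shRNA1, and 8047.8 and 5654.6 under Prmt6 shRNA2. On no array were 11 of the 23 detected, among them Sox7, Foxa2, Afp and Ttr.

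Trophectoderm markers followed the other order. Of 14, 8 were tested and 6 were called higher by limma (1.50% of all genes), 4 of them detected under GFP shRNA and 2 not. Their summed level was 3005 to 3169 with GFP shRNA, 18682 to 20883 with Prmt6 shRNA1 and 6184 to 6500 with Prmt6 shRNA2. Nid1, Lama5 and the summed level of the fibroblast markers were likewise highest with Prmt6 shRNA1. Eomes, Elf5, Hand1 and Ascl2 were detected on no array.

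Of 14 fibroblast markers, 11 were detected on no array, including Col1a1, Col1a2, Col3a1 and Thy1. Their summed level was 1158 to 1331 with GFP shRNA, 3877 to 4360 with Prmt6 shRNA1 and 2089 to 2106 with Prmt6 shRNA2. Of the 2 tested, the smooth muscle actin Acta2 was the 1 called higher (1.50% of all genes). Of 10 endothelial markers 7 were never detected, Cdh5 among them, and the sum was 841 to 847, 1116 to 1196 and 1242 to 1289 in the same group order. The embryonic stem cell markers summed to 37659 to 43730 with GFP shRNA, 31639 to 32127 with Prmt6 shRNA1 and 27237 to 29461 with Prmt6 shRNA2. Of the 13 tested, none lay above 0 across both hairpins, where 53.3% of all genes did. Eras, a Ras family gene of embryonic stem cells, was the 1 called lower (0.168% of all genes).

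The result for each gene was recomputed under alternatives of filter, probe choice, normalization and left-out array, 16 of them for the main comparison. There the difference of all 7 genes stayed above 0 under each of them, from 0.97 to 1.14 for Col4a1, 0.91 to 1.12 for Col4a2, 0.69 to 0.93 for Lamc1, 0.41 to 0.67 for Lama5, 0.64 to 1.07 for Nid1, 0.40 to 0.58 for Hspg2 and 0.93 to 1.17 for P4ha2. The threshold was passed under 6 alternatives each by Col4a1, Col4a2 and P4ha2, 4 by Nid1, 3 by Lamc1 and none by Lama5 or Hspg2. The fit behind these p-values had 3 residual degrees of freedom.

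**Figure D5:**
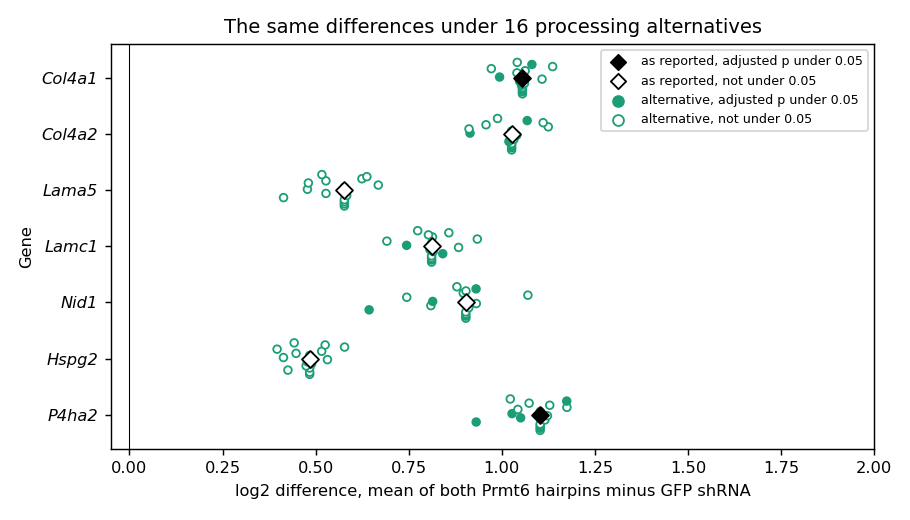
Log2 difference of both Prmt6 hairpins from GFP shRNA for each of the 7 genes as reported (diamonds) and under 16 processing alternatives (circles); filled symbols had a limma adjusted p under 0.05. All symbols lie right of 0, and filled circles appear for Col4a1, Col4a2, Lamc1, Nid1 and P4ha2.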

How the data were processed

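Total RNA of 6 samples was measured on Illumina mouse bead arrays. The authors deposited a background-subtracted intensity per probe and array, with a detection score beside it that is a fraction from 0 to 1 per the file headers, which grew with signal and was therefore taken as 1 minus a detection p-value. They also deposited processed log2 values, for which the submitters' processing notes name lumi; the version, transformation and array build are not given in the sources used here. Normalization used neqc (limma 3.58.1, R 4.3.3, offset 16, which lowers the fold of dim probes). Probes with a detection p under 0.01 on at least 2 of 6 arrays were kept, and the brightest kept probe stood for a gene. Symbols were updated through a RefSeq gene table (GRCm38.p6). The probe IDs fall into 2 numeric ranges, called the first and the second series, with 24613 and 22030 probes, and the 5 second-series probes of the 10 genes were detected on no array.

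One limma model of group means (lmFit, eBayes) took in all 6 arrays, with 4 contrasts: each hairpin and the mean of both against GFP shRNA, and Prmt6 shRNA2 minus Prmt6 shRNA1. P-values are two-sided, adjusted by Benjamini and Hochberg over 6539 genes, and called below 0.05. The smallest two-sided p an exact rank-sum test could give is 0.133 with 4 arrays against 2. Errors after ± are standard errors of the fit. A gene detected on no array of a group has a lower limit in place of a fold: the brighter group's mean against, on each dim array, its own value or the lowest detected signal, whichever was higher. The members and lists were chosen with earlier results of these data known. Named genes are all members, Prmt6, up to 4 called genes of each list, defining markers, and the 5 genes nearest to Col4a1. Other genes given with values (Col18a1, Agrn, Lamb2, Lama4, Fbln1, Serpinh1, P4ha1, P4hb, Itgb1 and Dag1) were chosen after their values were seen. Values of some listed genes are not reported here.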

Additional observations from a re-analysis of the deposited data

How the results depend on the processing

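With 6 arrays the signs were steadier than the calls. Over 17 alternatives (16 for both hairpins, where the compared groups alone are the same fit) the 7 tested genes and 4 contrasts gave 469 values: 381 kept their direction and side of the threshold, 43 lost the call, 39 gained one and 6 changed sign. The sign changes were Lama5 with Prmt6 shRNA2 against GFP shRNA, at -0.087 with 75th percentile scaling, -0.048 with the first series alone, -0.00874 without GFP shRNA replicate 2 and -0.030 without Prmt6 shRNA2 replicate 2 (range with an array left out -0.030 to 0.21); Col4a1 between the hairpins, at -0.10 with 75th percentile scaling; and Hspg2 between the hairpins, at 0.080 without Prmt6 shRNA1 replicate 1 (range with an array left out -0.26 to 0.080). Called members across both hairpins were 2 as reported, where 1.67% of all genes were called. They were 5 with detection on all 6 arrays (7.37% of all genes), the authors' processed values (2.98%) and the first series alone (4.87%). They were 0 with no filter on dim probes (0.127%), every kept probe tested (0.771% of probes) or no normexp with a floor of 1 (0.352%). They were also 0 with 75th percentile scaling (0.398%) or a replicate block (0%). The called set changed when an array was left out, which leaves 1 array in its group. With Prmt6 shRNA1 the called members were 1 as reported (1.32% of all genes). They were 5 with detection on all 6 arrays (5.76%), 3 with the first series alone (3.71%) and 2 with the authors' values (1.88%). They were 0 with no filter (0.181%), every probe (0.82% of probes), a floor of 1 (0.673%) or 75th percentile scaling (0.581%). They were also 0 with the compared groups alone (0.872%) or the replicate block (0.0918%), and no call held with an array left out. With Prmt6 shRNA2 the called members were 1 as reported (1.04% of all genes). They were 4 with detection on all 6 arrays (8.56%), the authors' values (2.19%), the normexp offset of 50 (1.64%) and the first series alone (3.56%). The mean of the kept probes gave 2 (1.28%). They were 0 with 75th percentile scaling (0.0153%). They were also 0 with no filter, every probe, a floor of 1, the compared groups alone or the replicate block (0% each). The called set changed with an array left out. Between the hairpins the called members were 0 as reported (0.398% of all genes). Detection on all 6 arrays gave 2, Lama5 and Nid1 (2.24%), and the first series alone gave 1, Lama5 (1.71%). The lists that follow were read across both hairpins, so the shares of all genes given above for that comparison apply to them. Other basement membrane genes, 0 as reported, gave 1 (Col18a1) with detection on all 6 arrays. Collagen maturation genes, 2 as reported, gave 4 with the first series alone, 1 with every probe or a floor of 1, 0 with no filter, 75th percentile scaling or the replicate block, and 0 to 3 with an array left out. Matrix receptors, 2 as reported, gave 5 with the first series alone, 0 with no filter, a floor of 1, 75th percentile scaling or the replicate block, and 0 to 4 with an array left out. The cause was not tested, other than that no filter and every probe test more genes, detection on all arrays and the first series fewer, and the replicate block leaves 2 residual degrees of freedom. Replicate numbers did not pair the arrays. The replicate differences of GFP shRNA correlated at -0.648 with those of Prmt6 shRNA1 and 0.124 with those of Prmt6 shRNA2, and those of the Prmt6 hairpins at -0.359. Some arrays were alike across groups. GFP shRNA replicate 1 and Prmt6 shRNA1 replicate 2 correlated at 0.966, and GFP shRNA replicate 2 and Prmt6 shRNA1 replicate 1 at 0.960. The 2 Prmt6 shRNA1 arrays correlated at 0.959. The model leaves this likeness in its spread, and its cause was not tested. With 75th percentile scaling the median of all genes lay at 0.16 with Prmt6 shRNA1 (-0.02 as reported) and at -0.25 between the hairpins (0.06 as reported).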
